A study of Danio rerio with 6 samples.

Results

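The Hox genes of zebrafish were followed in whole Tg (mbp:nfsB-egfp) larvae, as the transcript clusters (the sets of probes that an array reads out as 1 value) whose only gene symbol in the platform's table begins with hoxa, hoxb, hoxc or hoxd and a number. There were 47 such transcript clusters for 43 genes, out of 75212 transcript clusters and 19260 genes in all, and where a gene had several the brightest on average was used. All larvae carried the transgene, in which mbp regulatory sequence (mbp encodes myelin basic protein) drives bacterial nitroreductase (nfsB) and GFP, so that myelin-forming cells turn metronidazole into a toxic product. From 5 dpf on, the treated group was given metronidazole at 5 mM with 0.2% DMSO over 5 days and the control group 0.2% DMSO alone, and both were taken at 10 dpf. Each group had 3 arrays, and every array held RNA pooled from 5 larvae. In RNA of the whole body, fewer cells of a kind and less RNA per cell cannot be told apart. No larvae without the transgene were analysed here, so effects of metronidazole outside the myelin-forming cells cannot be told apart from those of the ablation.

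Hox genes encode homeodomain transcription factors that give cells their place along the body from head to tail. They lie in clusters, and a gene's paralog group, the number in its name, follows its position in the cluster: low numbers are switched on from the hindbrain backwards, middle numbers along the trunk, and high numbers towards the tail, the fins and the hind end of gut and kidney. Zebrafish kept 7 clusters, named HoxAa, HoxAb, HoxBa, HoxBb, HoxCa, HoxCb and HoxDa, and some genes are kept in a and b copies. In larvae, Hox transcripts persist in the hindbrain and spinal cord, where they mark the level of motor neurons and other neurons. The proteins bind DNA together with partners of the TALE class, the Pbx, Meis and Pknox proteins.

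Of the 49 protein-coding Hox genes in RefSeq, 43 could be measured, and all of these matched a RefSeq gene. The genes hoxa3a, hoxa4a, hoxa9a, hoxc9a and hoxc10a occur only in 3 transcript clusters that carry several symbols, and no transcript cluster with the symbol of hoxb1b was analysed here. Paralog groups 1 to 4 held 11 measured genes, groups 5 to 8 held 12, and groups 9 to 13 held 20. In RefSeq, long transcripts of hoxb3a, hoxc3a, hoxd3a, hoxa3a and hoxb1b span other Hox genes, so that 14 of the measured genes overlap a neighbour (for example hoxb4a, hoxb5a and hoxb6a within hoxb3a), and their signals may be shared.

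The mean log2 signal of a Hox gene over the 6 arrays ranged from 3.75 (hoxb13a) to 7.96 (hoxb4a), with a median of 6.38, against 6.75 over all genes. Of the 43 genes, 37 lay above the median of all transcript clusters (86.0%, against 80.7% of all 19260 genes), 16 lay above their 75th percentile (37.2%, against 47.3% of all genes) and 0 below their 25th percentile. The medians were 6.85 in paralog groups 1 to 4, 6.92 in groups 5 to 8 and 5.98 in groups 9 to 13. These are positions on the scale of the array. The signal of a transcript cluster depends on its probes, so the order of 2 genes is not an order of their RNA amounts. The fold of a dim gene is compressed, by how much is not known.

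**Figure D1:**
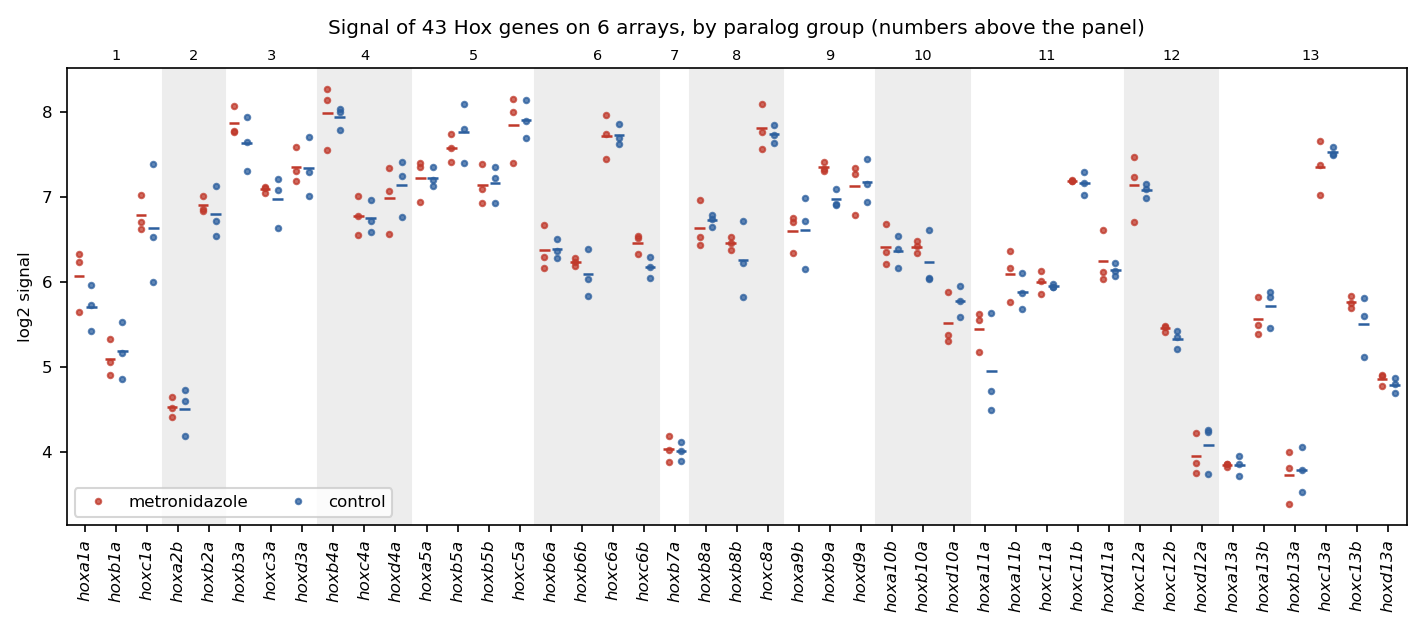
Log2 signal (y axis) of the 43 Hox genes (x axis, ordered by paralog group) in 3 metronidazole arrays (red, left of each gene) and 3 control arrays (blue, right). Points are arrays and bars are group means. Both groups overlap in all genes but hoxb9a and hoxc6b, and the 2 genes of lowest signal, hoxb13a and hoxa13a, belong to paralog group 13.

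Metronidazole and control larvae were then compared, which asks whether Hox gene expression differed between transgenic larvae given metronidazole and those given DMSO alone. None of the 43 genes passed the test at an adjusted p under 0.05 (limma over all transcript clusters, lowest adjusted p = 0.952), where 0% of all transcript clusters passed. The median difference, metronidazole minus control, was 0.03 on the log2 scale, against 0.02 over all genes, and 27 genes had a positive and 16 a negative difference. The differences ranged from -0.25 (hoxd10a) to 0.50 (hoxa11a), and 0 of 43 genes reached a 2-fold difference, against 2.24% of all genes. The median size of the difference, without its sign, was 0.09, against 0.16 over all genes. By limma, 1 gene (hoxb9a) was higher at an unadjusted p under 0.05, where 1.68% of all genes were higher, and 0 genes were lower, where 4.27% of all genes were. At that threshold 2 genes were higher and 0 lower with the methods' t-test, and 0 passed after adjustment. The share of all genes under that test is not given here.

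The precision of these values set a bound on changes that could have been missed. The standard error was 0.18 at the median Hox gene. The 95% interval of the difference lay within 2-fold in both directions for 42 of the 43 genes and within 1.5-fold for 24 of them. The exception at 2-fold was hoxa11a, whose interval reached 1.25 on the log2 scale. Over all genes, 81.9% had such an interval within 2-fold and 45.0% within 1.5-fold. The intervals hold for 1 gene at a time, are on the compressed scale of the array, and do not show that a gene did not change.

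**Figure D2:**
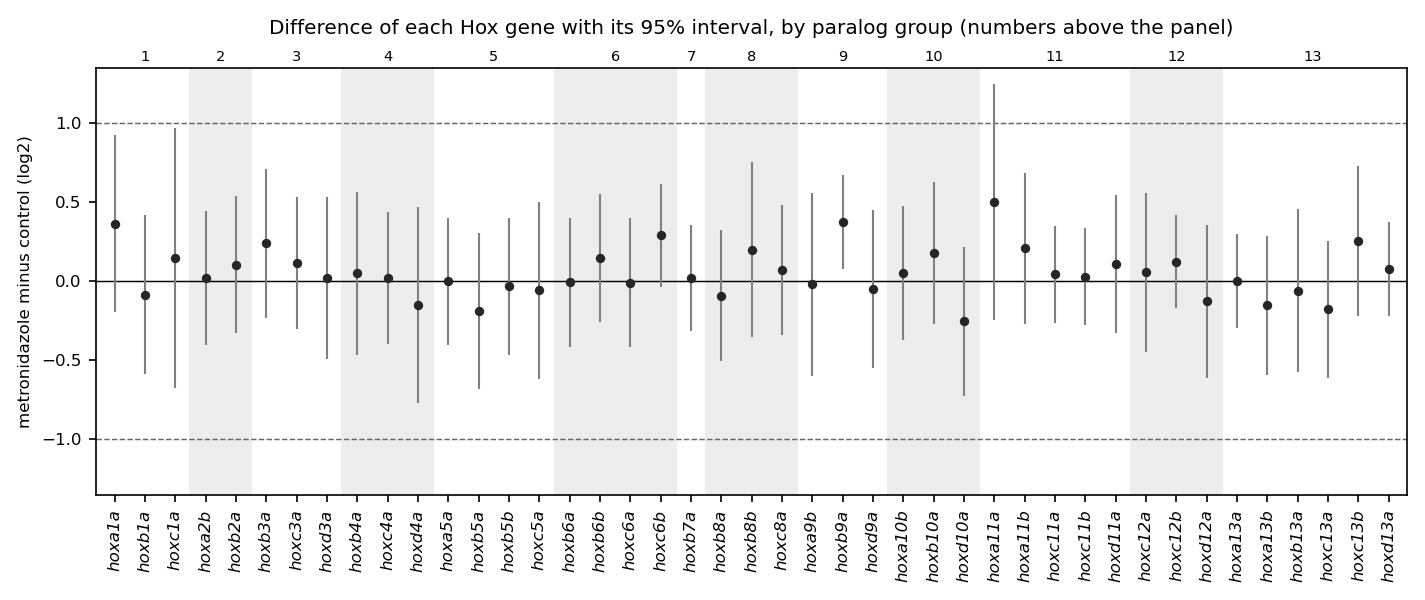
Difference of log2 signal, metronidazole minus control (y axis), of each Hox gene (x axis, by paralog group), with the 95% interval from limma. Dashed lines mark 2-fold. All intervals but that of hoxb9a contain 0, and that of hoxa11a alone crosses a dashed line.

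Genes of paralog groups 1 to 4 act in the hindbrain and the pharyngeal arches. Of the 11 measured, 9 had a positive difference, with a median of 0.05 and a range of -0.15 to 0.37. Without overlap between the arrays were 0 of the 11, where 5.14% of all genes were higher and 5.73% lower without overlap. With so few genes, no result is read from this count. The gene hoxa1a had log2 signals of 6.33, 5.64 and 6.23 in the metronidazole arrays 1, 2 and 3, against 5.96, 5.72 and 5.42 in the control arrays 1, 2 and 3. The second metronidazole array lay below the first and second control arrays, and the difference was 0.37 (standard error 0.24, limma adjusted p = 0.952). The gene hoxc1a, a fish gene of group 1 without a counterpart in mammals, was at 7.02, 6.70 and 6.62 in metronidazole larvae, against 7.38, 6.52 and 5.99 in control larvae. Its control arrays alone spanned more than the metronidazole arrays did, and its difference of 0.15 (standard error 0.35) was within that spread. The gene hoxb1a, which gives zebrafish rhombomere 4, the origin of the facial motor neurons, its identity, was at 5.05, 4.90 and 5.33 in metronidazole larvae and at 5.52, 5.16 and 4.85 in control larvae.

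In group 2, hoxa2b and hoxb2a together set the identity of the second pharyngeal arch in zebrafish. The gene hoxb2a was at 6.83, 6.86 and 7.01 in metronidazole larvae, against 7.13, 6.71 and 6.54 in control larvae, a difference of 0.11 (standard error 0.18), and hoxa2b had a difference of 0.02 (standard error 0.18). Groups 3 and 4 mark the caudal hindbrain. The gene hoxb3a was at 7.77, 7.76 and 8.07 in metronidazole larvae, against 7.94, 7.64 and 7.30 in control larvae, a difference of 0.24 (standard error 0.20). The third metronidazole array was its highest value and the third control array its lowest. The gene hoxb4a was at 7.54, 8.27 and 8.14 in metronidazole larvae, against 7.996, 8.03 and 7.79 in control larvae, so that both the highest and the lowest value were from treated larvae (difference 0.05, standard error 0.22). The gene hoxd4a was at 6.56, 7.07 and 7.34 against 7.41, 7.24 and 6.76 in the control arrays, a difference of -0.15 (standard error 0.26). In hoxd4a the first metronidazole array was lower than all control arrays and the third was higher than 2 of them. The remaining genes hoxc3a, hoxd3a and hoxc4a had differences of 0.11, 0.02 and 0.02. A second transcript cluster of hoxd3a, of lower signal, gave -0.18 (standard error 0.27), so the direction for hoxd3a is uncertain.

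Genes of paralog groups 5 to 8 mark the trunk. Of these 12 genes, 5 had a positive and 7 a negative difference, with a median of -0.004 and a range of -0.19 to 0.29. In group 5, all 4 measured genes had a negative difference, from -0.19 in hoxb5a to -0.00062 in hoxa5a. The genes hoxb5a and hoxb5b, with hoxb4a, are needed in zebrafish to place the pectoral fins. The gene hoxb5a was at 7.41, 7.73 and 7.57 in metronidazole larvae, against 7.79, 8.09 and 7.39 in control larvae (standard error of the difference 0.21). Here the first and second control arrays were above all treated arrays, and the third control array was below them. The gene hoxc5a was at 7.39, 7.996 and 8.15 in metronidazole larvae and at 8.13, 7.89 and 7.69 in control larvae, a difference of -0.06 (standard error 0.23).

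In group 6, hoxc6b was 1 of the 2 Hox genes whose arrays did not overlap. It was at 6.33, 6.54 and 6.51 in metronidazole larvae, against 6.17, 6.29 and 6.04 in control larvae, a difference of 0.29 (standard error 0.14), or 1.22-fold with a 95% interval of 0.977 to 1.53. The unadjusted p was 0.071 and the limma adjusted p 0.952. Each treated array was higher than each control array, the lowest treated array by little. Its copy hoxc6a was at 7.44, 7.74 and 7.97 against 7.85, 7.69 and 7.62 in control larvae, and its difference was -0.01 (standard error 0.17). In mouse and chick, the counterpart Hoxc6 marks the motor neurons of the forelimb level. The genes hoxb6a and hoxb6b had differences of -0.01 and 0.15.

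Group 7 has a single measured gene, hoxb7a, at 4.02, 3.88 and 4.18 in metronidazole larvae and 4.11, 3.89 and 4.01 in control larvae (difference 0.02, standard error 0.14). In group 8, hoxb8b was at 6.52, 6.37 and 6.46 in metronidazole larvae, against 6.71, 6.22 and 5.82 in control larvae, a difference of 0.20 (standard error 0.23). The treated arrays lay close together and inside the range of the control arrays. The gene hoxc8a was at 7.56, 7.76 and 8.09 in metronidazole larvae, against 7.84, 7.72 and 7.64 in control larvae, a difference of 0.07 (standard error 0.17), and hoxb8a had a difference of -0.09.

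Genes of paralog groups 9 to 13 mark the hind trunk, the tail and the fins. Of these 20 genes, 13 had a positive and 7 a negative difference, with a median of 0.05. The gene hoxb9a was the other gene without overlap and the only one under an unadjusted p of 0.05. Its log2 signal was 7.31, 7.32 and 7.41 in metronidazole larvae and 7.09, 6.91 and 6.91 in control larvae, so that the lowest treated array stood above the highest control array by more than the treated arrays spanned. The difference was 0.38 (standard error 0.12), with a 95% interval of 1.06-fold to 1.59-fold (unadjusted p = 0.020, limma adjusted p = 0.952). It was positive within all 3 replicate numbers, at 0.22, 0.41 and 0.50. With the replicate number as a block, the unadjusted p was 0.046 and the limma adjusted p 0.696. Without metronidazole replicate 3, control replicate 2 or control replicate 3, the unadjusted limma p was 0.065, 0.069 and 0.062, with a difference of 0.35 each time. Together with hoxc6b, 2 of 43 Hox genes lay without overlap above control, where 5.14% of all genes did, and 0 lay below it, where 5.73% of all genes did. The share of 2 in 43 is close to that of all genes. Its neighbours in group 9, hoxa9b and hoxd9a, had differences of -0.02 and -0.05.

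In group 10, which in mouse sets the lumbar level, hoxd10a had the lowest difference of the 43 genes. It was at 5.30, 5.38 and 5.88 in metronidazole larvae, against 5.77, 5.95 and 5.59 in control larvae, a difference of -0.25 (standard error 0.20). The groups overlapped, since the third treated array was above 2 control arrays. A second transcript cluster of hoxd10a, of lower signal, gave 0.21 (standard error 0.17), so the direction for this gene is uncertain. The gene hoxa10b was at 6.21, 6.34 and 6.67 against 6.53, 6.38 and 6.15 in control larvae, a difference of 0.05 (standard error 0.18), and hoxb10a, which mammals have lost, had a difference of 0.18.

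In group 11, all 5 measured genes had a positive difference, from 0.03 in hoxc11b to 0.50 in hoxa11a. With 1 array left out, the sign turned in hoxc11a (-0.021 to 0.12), hoxc11b (-0.038 to 0.096) and hoxd11a (-0.071 to 0.22). The gene hoxa11a was at 5.55, 5.62 and 5.17 in metronidazole larvae, against 5.64, 4.49 and 4.71 in control larvae, a difference of 0.50 (standard error 0.31, limma adjusted p = 0.952). The first control array was the highest of the 6 values, and the size of the difference came from the other 2 control arrays: without the first control array it was 0.85. The gene hoxc11b lay between 7.18 and 7.20 in metronidazole larvae and between 7.02 and 7.29 in control larvae.

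In group 12, hoxc12a was at 6.70, 7.23 and 7.47 in metronidazole larvae, against 6.99, 7.09 and 7.15 in control larvae (difference 0.06, standard error 0.21), with the treated arrays on both sides of the control arrays. The gene hoxd12a, of low signal, was at 3.87, 3.75 and 4.22 against 4.22, 3.74 and 4.26 in control larvae, a difference of -0.13 (standard error 0.20). In group 13, which in zebrafish acts in the tail bud and, with hoxa13a, hoxa13b and hoxd13a, in the rays of the fins, 3 of 6 genes were positive and 3 negative. The gene hoxc13a was at 7.02, 7.37 and 7.65 in metronidazole larvae, against 7.49, 7.50 and 7.58 in control larvae, a difference of -0.18 (standard error 0.18). Its copy hoxc13b was at 5.83, 5.69 and 5.74 against 5.80, 5.11 and 5.59 in control larvae, a difference of 0.25 (standard error 0.20). The fin ray genes hoxa13a, hoxa13b and hoxd13a had differences of 0.005, -0.15 and 0.08, and hoxb13a of -0.06.

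By cluster, the median difference ran from -0.05 in HoxDa (7 genes) to 0.19 in HoxCb (4 genes). It was 0.19 in HoxAa (4 genes), 0.02 in HoxAb (5), 0.02 in HoxBa (11), 0.15 in HoxBb (3) and 0.05 in HoxCa (9). All 4 genes of HoxCb, namely hoxc6b, hoxc11b, hoxc12b and hoxc13b, were positive, from 0.03 to 0.29, and 3 of 9 in HoxCa were negative. These medians rest on few genes, and differences between clusters were not tested.

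Where both copies of a gene were kept and measured, their differences could be set side by side in 9 pairs. The b copy had the higher difference in 6 pairs and the a copy in 3, and the b copy was higher within all 3 replicate numbers in 3 of the pairs, hoxb8, hoxc6 and hoxc13. The largest gap was in hoxc13, with 0.25 in the b copy and -0.18 in the a copy, a gap of 0.43 (two-sided exact permutation test of the array labels, p = 0.2, adjusted over the 9 pairs 0.9). The gap in hoxc6 was 0.30 (exact p = 0.2, adjusted 0.9) and that in hoxb8 0.29 (exact p = 0.5, adjusted 0.9). In hoxa11 the a copy was higher, with a gap of -0.29 (exact p = 0.5, adjusted 0.9). With 3 arrays against 3 this test cannot go below 0.1, so it could not have called a gap in any pair, and it does not use the replicate numbers. Within replicates 1, 2 and 3 the gap was 0.49, 0.72 and 0.08 in hoxc13, 0.57, 0.20 and 0.13 in hoxc6 and 0.17, 0.29 and 0.42 in hoxb8.

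**Figure D3:**
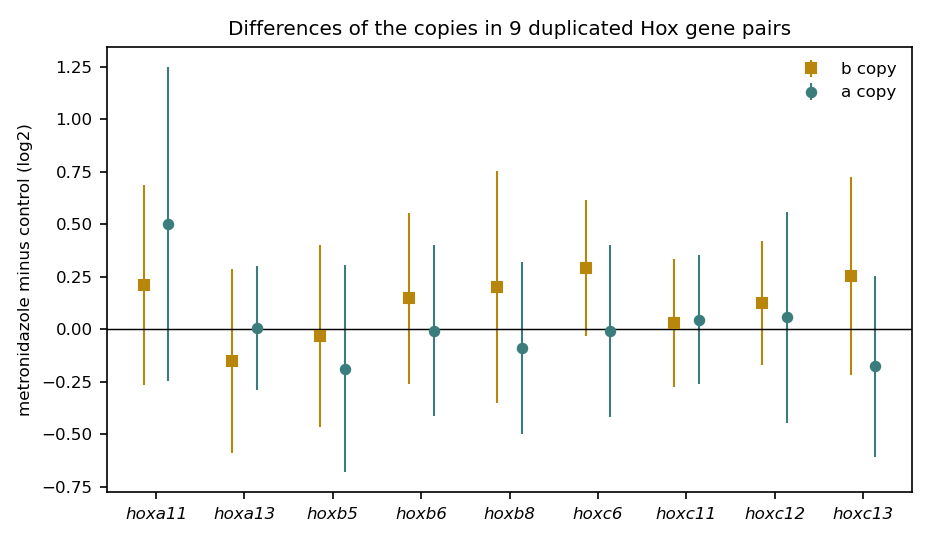
Difference of log2 signal, metronidazole minus control (y axis), for the b copy (squares, left) and the a copy (circles, right) of 9 Hox gene pairs (x axis), with 95% intervals from limma. The intervals of the copies overlap in each pair, also in hoxc13, where the b copy is at 0.25 and the a copy at -0.18.

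The Hox genes varied together from array to array, and this variation was larger than the difference between the groups. Of the 43 genes, 36 were lower in metronidazole than in control larvae within replicate 1 (83.7%, against 54.0% of all genes), with a median difference of -0.28. Within replicate 2, 16 were lower (37.2%, against 46.0% of all genes) and the median was 0.04. Within replicate 3, 3 were lower (6.98%, against 46.7% of all genes) and the median was 0.38. The medians over all genes were -0.03, 0.03 and 0.03. The sign of the Hox difference therefore turned between replicate numbers, and only 3 genes, hoxb9a, hoxc6b and hoxc13b, were higher within all 3 replicates (6.98%, against 15.8% of all genes), while 0 were lower in all 3 (against 15.8%). These differences pair the arrays by replicate number, and in the Hox genes the pairing of replicates 2 and 3 is uncertain.

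The median turned from negative to positive in all 3 ranges of paralog groups. In paralog groups 1 to 4 the median difference was -0.36, 0.05 and 0.47 within replicates 1, 2 and 3. In groups 5 to 8 it was -0.31, 0.04 and 0.33, and in groups 9 to 13 it was -0.21, 0.04 and 0.30. By cluster it did not turn in HoxCb, where the medians were 0.007, 0.25 and 0.16 within replicates 1, 2 and 3 and 2 of 4 genes were lower within replicate 1. Nor did it in HoxAa, with medians of 0.03, 0.02 and 0.34 and 2 of 4 genes lower within replicate 1. In group 13 the medians were -0.05, -0.01 and 0.11, and hoxd12a, hoxa13a and hoxb13a, the 3 genes of lowest signal, were the genes that were lower within replicate 3. The steepest turn among the named genes was in hoxd4a, which was -0.85 within replicate 1, -0.18 within replicate 2 and 0.58 within replicate 3. Because the genes lie in clusters and some overlap in RefSeq, they cannot be taken as independent of each other.

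**Figure D4:**
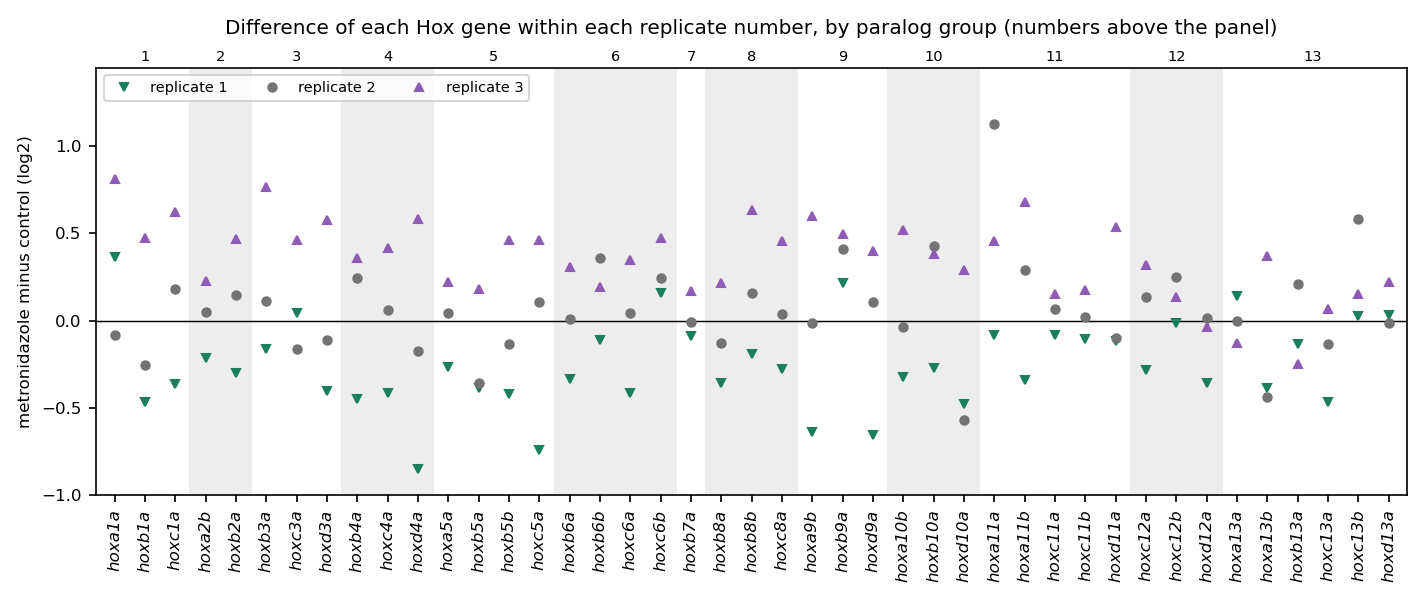
Difference of log2 signal, metronidazole minus control, within replicate 1 (down triangles), 2 (circles) and 3 (up triangles) on the y axis, for each Hox gene on the x axis. In 36 of 43 genes the difference within replicate 1 is below 0, and in 40 that within replicate 3 is above 0. Arrays are paired by replicate number, which is uncertain for replicates 2 and 3.

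Centred on its mean over the 6 arrays, the median Hox gene stood at -0.12, 0.01 and 0.19 in the metronidazole arrays 1, 2 and 3, and at 0.13, -0.03 and -0.19 in the control arrays 1, 2 and 3. The third metronidazole and the first control array were thus high, and the third control and the first metronidazole array low. The third metronidazole array was the highest of its group in 28 genes (65.1%, against 29.7% of all genes), and the first metronidazole array the lowest in 25 (58.1%, against 41.0%). The first control array was the highest of its group in 31 genes (72.1%, against 43.2%), and the third control array the lowest in 30 (69.8%, against 36.5%). In paralog groups 1 to 4 the third control array was the lowest in 11 of 11 genes. Some other lists shared this order of control arrays and some did not. The first was highest in 11 of 11 TALE cofactors, 19 of 27 Polycomb and Trithorax genes and 3 of 3 even-skipped genes. It was highest in 9 of 23 retinoic acid pathway genes and 0 of 10 skeletal muscle genes. The third was lowest in 8, 9, 3, 10 and 0 of these, in that order, and in 8 of 9 motor neuron markers. The first metronidazole array was also the lowest of its group in other lists. It was so in 8 of 8 neuron, 10 of 10 skeletal muscle, 7 of 11 TALE and 12 of 27 Polycomb and Trithorax genes. The third metronidazole array was the highest in 3, 7, 5 and 12 of these, in that order. The median over all genes lay between -0.02 and 0.02 in each array, as arrays on a common scale do.

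Other gene lists were measured beside the Hox genes, and none of their genes passed the limma test at an adjusted p under 0.05. Among the TALE cofactors, array medians were 0.01, 0.11 and 0.17 in metronidazole and 0.13, -0.05 and -0.23 in control larvae, with the third control array low as in the Hox genes. Of 11 measured, 8 had a positive difference, with a median of 0.12, and the medians within replicates 1, 2 and 3 were -0.14, 0.21 and 0.38. The cofactor meis3 was at 8.27, 8.35 and 8.50 in metronidazole larvae, against 8.68, 7.81 and 7.80 in control larvae (difference 0.28, standard error 0.26). The lowest unadjusted p of the list was 0.131, in pbx3a (difference 0.28, standard error 0.16). With the replicate number as a block, the cofactor pknox1.2 had an unadjusted limma p of 0.030 (difference 0.41, adjusted p = 0.659). In the limma fit with that block, 459 of all 19260 genes were higher and 1328 lower at an unadjusted p under 0.05. The 9 markers of spinal motor neurons, the cells whose subtypes Hox genes set in mouse and chick, had a median difference of 0.19, with 0.14, 0.25 and 0.47 within the replicates, and 3 of them had an unadjusted p under 0.05, all higher, where 1.68% of all genes were higher. These were slc18a3a, the vesicular acetylcholine transporter (0.50, standard error 0.13), the transcription factor lhx4 (0.44, standard error 0.17) and chata, which makes acetylcholine (0.31, standard error 0.13), each without overlap, where 5.14% of all genes were higher without overlap, and each with a limma adjusted p of 0.952. With the replicate number as a block 2 of them stayed under 0.05, and chata had an unadjusted limma p of 0.083. Of the other markers, isl2b (0.35), isl1a (0.19), mnx1 (0.15), isl2a (0.12) and mnx2b (0.03) were positive and mnx2a (-0.003) negative. Their unadjusted limma p ran from 0.064 to 0.991. The list was written with earlier results of these data known, so its share is not a test of motor neurons. The array medians of the 9 markers were 0.11, 0.12 and 0.18 in metronidazole and 0.02, -0.09 and -0.29 in control larvae. The part of motor neurons in the Hox signal was not tested.

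Genes that regulate Hox clusters gave no common direction. Of 27 Polycomb and Trithorax genes, which hold Hox genes silent or active, 16 were positive, with a median of 0.04. The gene jarid2a, a partner of the Polycomb complex, had an unadjusted p of 0.026 (difference 0.37, standard error 0.13). It lay between 7.09 and 7.33 in metronidazole larvae and between 6.79 and 6.94 in control larvae. With the replicate number as a block, the Polycomb gene cbx7a also had an unadjusted limma p under 0.05, at 0.0039 (difference 0.80, adjusted p = 0.504), and was higher within all 3 replicates. Of 23 genes of the retinoic acid pathway, the signal that switches on anterior Hox genes, 13 were negative, with a median of -0.01. By limma 0 had an unadjusted p under 0.05, where 1.68% of all genes were higher and 4.27% lower. With so few genes, no result is read from this count. In the limma fit with the replicate block, dhrs3b, a retinaldehyde reductase, had an unadjusted limma p of 0.036 (difference -0.42, adjusted p = 0.676). The 4 measured regulators of hindbrain segments had a median of 0.04, and the 3 even-skipped genes a median of -0.07. Among these, evx2, which lies beside the HoxDa cluster, was at 6.84, 6.83 and 7.06 in metronidazole larvae, against 7.11, 6.34 and 6.21 in control larvae (difference 0.36, standard error 0.25). Of 10 symbols of microRNAs that lie in Hox clusters, 0 had a transcript cluster of their own.

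Of 5 Cdx and ParaHox genes, which are relatives of the Hox genes, 4 were negative, with a median of -0.19. The gene cdx1b, needed for the lining of the gut, was at 7.61, 7.26 and 7.17 in metronidazole larvae, against 7.87, 8.03 and 8.13 in control larvae. All treated arrays were below all control arrays, with a difference of -0.66 (standard error 0.16, unadjusted p = 0.006, limma adjusted p = 0.952). It is also 1 of the 10 enterocyte markers, all of which were negative, with a median of -1.46 and array medians of -1.27, 0.03 and -0.53 in metronidazole and 0.20, 0.91 and 0.92 in control larvae. The arrays of the Hox genes did not follow that order.

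For the remaining markers of whole larvae, the medians of the differences were 0.0016 for 8 genes of neurons, -0.05 for 6 genes of oligodendrocytes and myelin, 0.02 for 10 genes of skeletal muscle, -0.15 for 9 genes of kidney tubules and -0.35 for 9 genes of fins. The myelin basic protein gene mbpa was at 8.28, 8.71 and 8.66 in metronidazole larvae, against 8.69, 8.61 and 8.77 in control larvae, a difference of -0.14 (standard error 0.16, limma adjusted p = 0.963). Only its first metronidazole array was below all control arrays, so these arrays do not show a loss of mbpa transcripts beyond the spread between arrays. In the same list, mbpb had a difference of 0.03 (standard error 0.13). The difference of cldnk was -0.35 (standard error 0.31), at -0.88, -0.08 and -0.11 within the replicates. Of the 6 genes of oligodendrocytes and myelin, 3 were positive and 3 negative. The gene sox10 had a difference of 0.25 (standard error 0.13) and was higher within each replicate. The differences of olig2 and nkx2.2a were -0.31 (standard error 0.17) and 0.10 (standard error 0.32). The myelin genes plp1a, plp1b and mpz of that list were not measured. In the fin list, and1, a gene of fin fold fibres, was at 5.96, 8.38 and 8.99 in metronidazole and 7.51, 9.95 and 9.60 in control larvae, a difference of -1.24 (standard error 0.94). Both arrays of replicate 1 were low, and and1 was lower within each replicate, at -1.55, -1.57 and -0.61, with an unadjusted limma p of 0.227 without the block and 0.0035 with it (adjusted p = 0.501). Its relatives and3 and and4 had differences of -1.32 and -0.87, also negative within each replicate, with unadjusted limma p of 0.058 and 0.014 with the block. Another relative, and2, had a difference of -0.35 but was higher within replicate 1, at 0.49. Also negative was pitx1, with a difference of -0.57 (standard error 0.29), at -1.10, -0.48 and -0.12 within replicates 1, 2 and 3. Of the 9 fin genes 5 were negative, while fgf24 (0.29), tbx4 (0.36), tbx5a (0.24) and tbx5b (0.17) were positive. The part of fin tissue in the signal of the fin genes hoxa13b and hoxd13a was not tested. The kidney and gut cadherin cdh17 was at 7.53, 7.997 and 7.63 in metronidazole larvae, against 8.36, 9.25 and 9.12 in control larvae (difference -1.19, standard error 0.27, unadjusted p = 0.003, limma adjusted p = 0.952). This was the lowest difference of the 9 kidney genes. Of these, 6 were negative, and lhx1a (0.26), pax2a (0.14) and trpm7 (0.09) were positive.

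**Figure D5:**
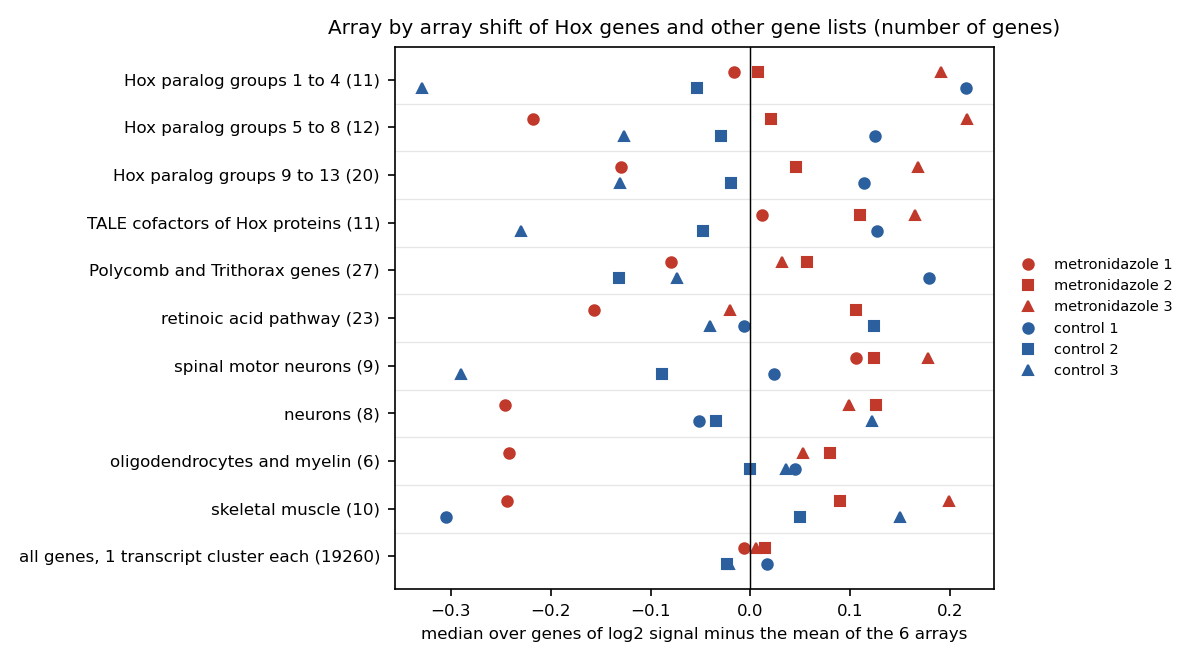
Median over the genes of a list (rows, with the number of genes) of log2 signal minus its mean over the 6 arrays (x axis), for each metronidazole array (red, upper) and control array (blue, lower). In the 3 Hox rows the third control array is low and the third metronidazole array high. The same holds for TALE cofactors (-0.23 and 0.17) and spinal motor neurons (-0.29 and 0.18). The medians over all genes stay between -0.02 and 0.02.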

How the data were processed

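RNA of whole larvae was measured on 6 Affymetrix GeneChip Zebrafish Gene ST arrays. As deposited, the table holds a log2 signal for each transcript cluster on each array, which the authors had summarized and brought to nearly the same scale (array medians 5.10 to 5.14). The labels name MAS5 without its role, and normalization and background correction are not given in the sources used here. Arrays give no read depth, and their number limits the precision. Columns were matched to samples by accession.

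The platform's annotation supplied the gene symbols, and RefSeq (GRCz12tu) gave names and overlaps only. No sequence of these genes was used here. Groups were compared by limma 3.58.1 in R 4.3.3 (lmFit, eBayes, two-sided, 4 residual and 2.69 prior degrees of freedom) on all transcript clusters with Benjamini-Hochberg adjustment. Summaries used pandas 2.3.3 and the plots matplotlib 3.10.9, under Python 3.11.15. The members and lists were chosen with earlier results of these data known. Named Hox genes were those with an unadjusted p under 0.05, those without overlap and with a difference over 0.3, and in each paralog group the genes of highest signal and of largest difference. Genes named beyond this, among them hoxb1a and the copies, were chosen after their values were seen. For lists, up to 3 members of lowest p and mbpa were named. The genes meis3, cbx7a, mbpb, nkx2.2a, pax2a, trpm7, tbx4, tbx5b, and1, and2, and3 and and4 were chosen after their values were seen. So were the motor neuron markers other than slc18a3a, lhx4 and chata.

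The labels give both groups replicate numbers 1, 2 and 3, and the methods speak of 3 batches of larvae. Deviations from the group means correlated at 0.241, 0.148 and 0.127 between arrays of the same number and at -0.171 to 0.051 between others, so the numbers were taken to pair the arrays. The deviations cancel within each group, so positive values between some arrays go with negative values between others. No test of this matching against other matchings is given here. Over the Hox genes alone these correlations were 0.471, 0.148 and 0.186 between arrays of the same number. Between others they were -0.377 to 0.260, highest between metronidazole array 3 and control array 2. Control array 2 thus went more closely with metronidazole array 3 than with metronidazole array 2. The pairing of replicates 2 and 3 is therefore uncertain in the Hox genes. In simulated arrays of 75212 transcript clusters for this comparison, limma called 0% of changes of 1, 69.0% of changes of 2 and 82.5% of changes of 3 on the log2 scale. Each simulation changed 200 transcript clusters and drew normal noise independently for each, without the shared shifts of the Hox genes. These shares therefore do not give the power for the Hox genes. Alternatives were a replicate block, each array left out, quantile normalization, median centring, bright transcript clusters only, the mean over all transcript clusters of a gene, an intensity trend, array weights, the methods' t-test and the ratio of linear signals.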

Additional observations from a re-analysis of the deposited data

How the results depend on the processing

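No Hox gene passed an adjusted p under 0.05 by limma or the methods' t-test under any alternative run (lowest adjusted p = 0.438, without control replicate 1). With the replicate block, 0 Hox genes passed (lowest adjusted p = 0.696), and the median of all within-replicate differences was 0.05. In that limma fit, 459 of all 19260 genes were higher and 1328 lower at an unadjusted p under 0.05. Of the Hox genes, 1 was higher and 0 were lower at that threshold, as without the block. The count of higher genes at an unadjusted p under 0.05 was 1, against 2 by the methods' t-test, and ranged from 0 to 3 with 1 array left out (3 without control replicate 1, and 0 without metronidazole replicate 3, control replicate 2 or control replicate 3). That of lower genes ranged from 0 to 1, with 1 without metronidazole replicate 3. Genes without overlap ranged from 2 to 12 higher (12 without control replicate 1, 7 without metronidazole replicate 1 and 4 without metronidazole replicate 2, where fewer arrays make an overlap less likely) and from 0 to 3 lower (3 without metronidazole replicate 3). Shares of all genes with 1 array left out are not given here, so no result about the Hox genes is read from these counts. The gene hoxb9a kept a difference between 0.35 and 0.44 in all alternatives. The median of all Hox genes ranged from -0.06 without metronidazole replicate 3 to 0.12 without metronidazole replicate 1, and the medians of groups 1 to 4, 5 to 8 and 9 to 13 from -0.06 to 0.16, from -0.10 to 0.13 and from -0.05 to 0.12. With array weights, which ran from 0.558 for metronidazole replicate 1 to 2.30 for control replicate 2, only 8 of 43 genes were negative, and hoxc5a (0.10), hoxc6a (0.12) and hoxd12a (0.10) turned positive. With linear signals hoxc6a was at 0.0048. With 1 array left out, the sign turned in hoxc1a (-0.17 to 0.52), hoxb2a (-0.021 to 0.27), hoxb4a (-0.093 to 0.27), hoxd4a (-0.34 to 0.066), hoxc5a (-0.21 to 0.17), hoxc6a (-0.13 to 0.13), hoxb7a (-0.054 to 0.096), hoxb8b (-0.013 to 0.43), hoxc8a (-0.073 to 0.19), hoxa10b (-0.080 to 0.15), hoxc11b (-0.038 to 0.096) and hoxc12a (-0.11 to 0.27). The cause was not tested. Over all 43 genes, the sign turned in 27 with some array left out, 12 of the 22 genes named by the rule and 15 of the 21 others. The other alternatives were run by gene for those 22 only.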
